A study of Mus musculus with 6 samples.

Results

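*Kbtbd8* encodes an adaptor protein with a BTB domain and kelch repeats, and it is described here together with 8 genes that are related to it or act with it in the RNA of mouse aortas with and without miRNA-26b. The 9 genes were taken by their symbols from a table of read counts with 55341 genes. They comprise *Kbtbd8* itself, the related adaptor genes *Kbtbd2*, *Kbtbd3*, *Kbtbd4*, *Kbtbd7* and *Kbtbd11*, the cullin gene *Cul3*, and the genes *Tcof1* and *Nolc1*, whose proteins are substrates of the KBTBD8 ligase. *Kbtbd8* was chosen by its counts in these same libraries, which were 0 in every miRNA-26b-/- library, so its difference between the groups is a description and carries no test. The other 8 genes were selected for their roles, with earlier results of these data known.

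RNA from the aortic arch and thoracic aorta of 3 miRNA-26b-/- and 3 miRNA-26b+/+ mice, 8 weeks old and fed chow diet, was sequenced with 1 library per mouse. The miRNA-26b-/- libraries are M2626, M2627 and M2628 (replicates 1 to 3), and the miRNA-26b+/+ libraries are M2629, M2630 and M2631 (replicates 1 to 3). The strain given in the labels is C57BL/6NCrl for both groups, whereas the targeted allele was made in 129/Sv embryonic stem cells. In the miRNA-26b-/- mice, the miRNA-26b hairpin in an intron of the phosphatase gene *Ctdsp1* was removed with a tamoxifen-inducible Cre, which was then bred out. The controls are called naive in the labels, and whether they or their parents received tamoxifen or carried Cre is not given in the sources used here. The labels call the samples endothelial cells, but the summed level of 7 smooth muscle markers was between 32780 and 44090 CPM (counts scaled to the size of each library after TMM normalization) and that of 8 endothelial markers between 450 and 1695 CPM, so the RNA is described here as that of whole aorta.

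The libraries held between 25706728 and 33345037 counts. *Mir26b* itself had 0 counts in 5 libraries and 20 in M2630, too few to check the genotypes, and its host gene *Ctdsp1* differed by 0.20 on the log2 scale (adjusted p = 0.866, edgeR's quasi-likelihood test). The miRNA-26b-/- libraries differed among themselves in their cell type markers. In M2628, the endothelial markers summed to 1695 CPM, against 450 in M2626 and 470.5 in M2627 and between 1187 and 1632 in the miRNA-26b+/+ libraries. Markers of Schwann cells summed to between 151 and 276 CPM in the miRNA-26b-/- and between 37.1 and 101 CPM in the miRNA-26b+/+ libraries, with a positive log2 difference for 6 of 6 markers, 5 of them at an unadjusted p below 0.05. All 6 tested markers of sympathetic neurons and all 6 of skeletal muscle also had a positive log2 difference. By edgeR's quasi-likelihood test, 3 of the neuron markers and 5 of the muscle markers had an unadjusted p below 0.05, beside 6.47% of all genes tested. In the Schwann cell, neuron and muscle lists, 0 markers had an adjusted p below 0.05, and the smallest was 0.102. The summed level of both lists was far higher in M2627 than in the other libraries. The neuron markers summed to 252 CPM in M2627, 10.04 in M2626 and 13.7 in M2628, against 12.6 to 54.0 CPM in the miRNA-26b+/+ libraries, and *Th* and *Dbh*, which define these neurons, were at 0 in M2626, M2628, M2629 and M2631. The skeletal muscle markers summed to 85.9 CPM in M2627 and to between 2.18 and 27.5 CPM in the other 5 libraries. Not all of them rested on M2627. *Mylpf* had 3.56, 3.37 and 6.17 CPM in M2626, M2627 and M2628 and 0 CPM in every miRNA-26b+/+ library. *Tnnt3* had 4.49, 6.74 and 1.915 CPM against at most 0.0662 CPM in the miRNA-26b+/+ libraries. In contrast, all 8 endothelial markers had a negative log2 difference. Of these, 1 (*Tek*) had an unadjusted p below 0.05 by the same test, and 0 had an adjusted p below 0.05. Between groups of whole tissue, fewer cells of a type and less RNA per cell cannot be told apart.

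Cullin-RING ligases attach ubiquitin to proteins. In the CUL3 ligases, a protein with a BTB domain binds CUL3 at one end and, through kelch repeats or another domain, the substrate at the other, so that the adaptor decides which protein is modified. The adaptor KBTBD8 is best known from the embryo, where CUL3 with KBTBD8 adds single ubiquitin molecules to TCOF1 (treacle) and NOLC1, both bound to RNA polymerase I or to the machinery that modifies ribosomal RNA, and thereby favours the formation of neural crest cells, which give rise to Schwann cells, sympathetic neurons and the smooth muscle of the aortic arch. *TCOF1* is the gene most often mutated in Treacher Collins syndrome. MicroRNAs pair through their seed, bases 2 to 8, with sites in the 3′ UTR of messenger RNAs and in general lower the level or the translation of those messengers.

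The mature miRNA-26b-5p that the knockout removes is shown with its paralog miRNA-26a-5p, because both carry the same seed (capitals, bases 2 to 8) and the *Mir26a* genes are not targeted in these mice. The sequences are those of RefSeq for GRCm38.p6.
mmu-miR-26b-5p: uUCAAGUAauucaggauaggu
mmu-miR-26a-5p: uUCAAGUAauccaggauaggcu
The first is encoded at chr1:74394324-74394344 on the forward strand, and the second by *Mir26a-1* on chromosome 9 and *Mir26a-2* on chromosome 10.

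The longest annotated 3′ UTR of each of the 9 genes was searched, on the transcribed strand of GRCm38, for the 8mer TACTTGAA, for the 7mer-m8 TACTTGA and for the 7mer-A1 ACTTGAA, with an 8mer not counted again as a 7mer. *Kbtbd8* held 1 8mer, and *Kbtbd11* and *Cul3* held 1 7mer-A1 each. The sites are shown within 30 bases of the messenger, with the match in capitals.
Kbtbd8, 8mer at chr6:95128835-95128842: ggaaaattcatTACTTGAAtacatgatgta
Kbtbd11, 7mer-A1 at chr8:15032447-15032453: cagctcggccgACTTGAAatgtgcttctgc
Cul3, 7mer-A1 at chr1:80265099-80265105: tcttttttgtgACTTGAAttttaggaaaga
*Cul3* lies on the reverse strand, and the other 2 genes on the forward strand. None of the 3 motifs occurred in the longest 3′ UTR of *Kbtbd2* (1354 bases), *Kbtbd3* (281 bases), *Kbtbd4* (684 bases), *Kbtbd7* (2234 bases), *Tcof1* (453 bases) or *Nolc1* (1360 bases). The site of *Kbtbd8* starts 1895 bases after the stop codon in a 3′ UTR of 2850 bases. Of the 1180 genes with a 3′ UTR within 10% of that length, 9.41% held an 8mer and 36.4% any of the 3 matches. Over all 21020 genes with an annotated 3′ UTR these shares were 4.19% and 18.3%, and among the 9 genes they were 11.1% and 33.3%. A match is a description of sequence and not a measured binding site.

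**Figure D1:**
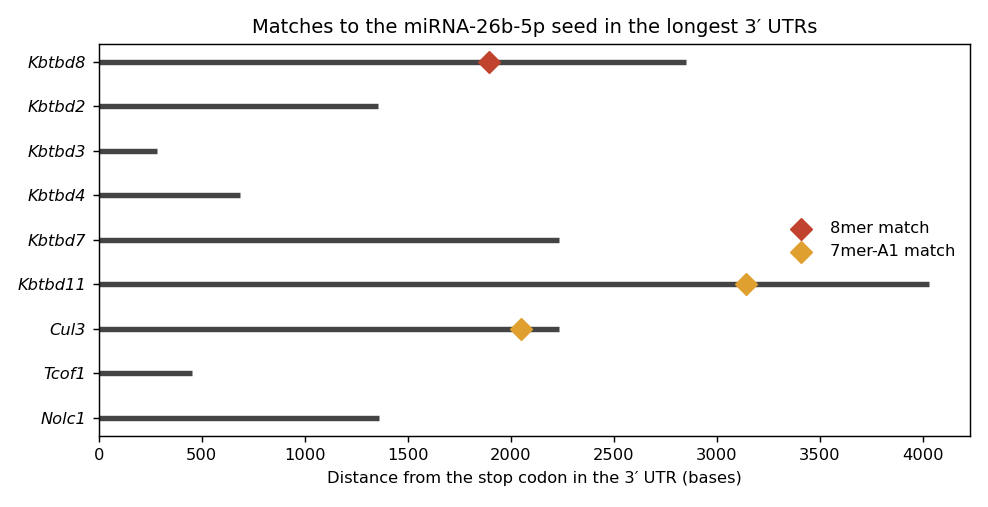
Longest annotated 3′ UTR of each of the 9 genes, drawn as a line from the stop codon, with distance in bases on the x axis and diamonds at matches to the miRNA-26b-5p seed. The 8mer of Kbtbd8 starts at base 1895 of 2850, Kbtbd11 and Cul3 hold 1 shorter match each, and the other 6 genes hold none.

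*Kbtbd8* (ENSMUSG00000030031, chr6:95117240-95129790, forward strand, protein-coding) had 0 counts in M2626, 0 in M2627 and 0 in M2628. In the miRNA-26b+/+ libraries it had 57 counts in M2629, 33 in M2630 and 134 in M2631. The groups did not overlap, and the miRNA-26b+/+ mice differed among themselves, with the highest library several times the lowest. As normalized levels these were 1.86, 1.20 and 4.43 CPM, a mean of 2.50 ± 1.71 CPM (SD, n = 3), and 0 CPM in each miRNA-26b-/- library. A count of 0 allows up to 3 counts, which is between 0.0894 and 0.117 CPM in the 3 miRNA-26b-/- libraries. The miRNA-26b+/+ mean was 23.9-fold above the mean of these 3 limits, 0.104 CPM, with an SD of 16.4 from the spread of the 3 miRNA-26b+/+ mice. This ratio moved to 14.7-fold without M2631, which held the most counts, and to 24.2-fold without M2628. The limits cover counting error only, so the ratio describes these libraries and is no lower bound for the mice.

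*Kbtbd8* passed the filter on low values only through the miRNA-26b+/+ group. It shares this pattern with other genes of low level: 50 of the 16017 genes tested had 0 counts in every miRNA-26b-/- library, and 78 had 0 counts in every miRNA-26b+/+ library. By the mean level in miRNA-26b+/+ mice, *Kbtbd8* was number 3 of these 50. Among the 800 tested genes with a miRNA-26b+/+ mean between 2 and 3 CPM, 275 had 0 counts in at least 1 of the 6 libraries and 10, *Kbtbd8* among them, in all miRNA-26b-/- libraries. In the reverse direction, 7 of the 818 genes with a miRNA-26b-/- mean between 2 and 3 CPM had 0 counts in all miRNA-26b+/+ libraries. The coefficient of variation of *Kbtbd8* over the miRNA-26b+/+ mice was 68.3%, beside a median of 56.9% for the 800 genes.

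Over the 6 libraries, the genes with the log2 CPM most like that of *Kbtbd8* were *Gm44954*, *C130026I21Rik*, *AC132307.1*, *Gm45141* and *Mir5132*, with Pearson correlations of 0.993 or more. These 5 genes lie on other chromosomes than *Kbtbd8*, and 4 of them are a processed pseudogene, a transcript within an intron, a gene model that awaits experimental proof and a microRNA. Each had 0 counts in all 3 miRNA-26b-/- libraries, so that the correlation mostly restates the split between 0 and not 0. *Gm44954*, a processed pseudogene on chromosome 7, had 32, 22 and 73 counts in M2629, M2630 and M2631, which is the order of *Kbtbd8* in these mice. It was picked by its correlation with *Kbtbd8* in these same libraries, so this order is no separate observation. In all, 153 of 16016 genes had a correlation above 0.9. All points share the same 6 libraries and their depths.

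The genes around *Kbtbd8* were measured as well. *Kbtbd8os*, the antisense gene at its start, had 0 counts in all 6 libraries and shares no exon base with it. Of the protein-coding neighbours, *Lrig1* (a membrane protein that restrains growth factor receptors), 417 kb before it, was at 74.6 ± 7.74 CPM when miRNA-26b was absent and at 72.7 ± 5.28 CPM in the controls (SD, n = 3 per group). *Slc25a26*, the mitochondrial carrier of S-adenosylmethionine, had 7.46 ± 2.84 and 9.63 ± 4.11 CPM. *Suclg2*, a subunit of succinyl-CoA ligase 343 kb after it, had 51.3 ± 10.7 and 44.7 ± 5.14 CPM, and *Gm10234* had 0 counts in all libraries. None of the 3 measured neighbours passed the test (adjusted p between 0.931 and 0.991, edgeR's quasi-likelihood test).

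**Figure D2:**
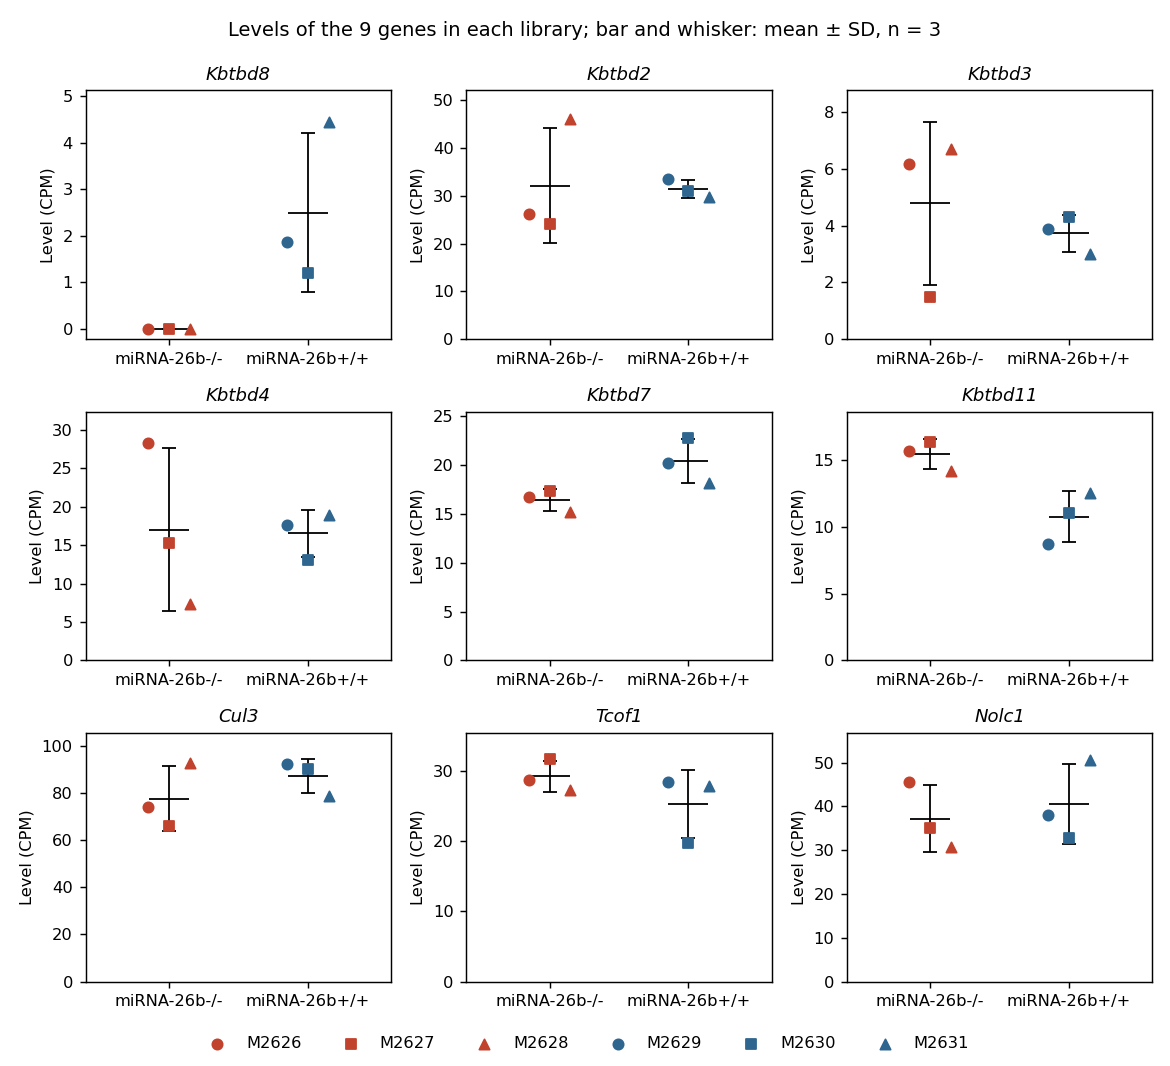
Level in CPM of each of the 9 genes in each library (points, miRNA-26b-/- in red and miRNA-26b+/+ in blue), with the mean and SD of the 3 libraries of each group, all axes linear and including 0. Kbtbd8 is at 0 in the 3 miRNA-26b-/- libraries and between 1.20 and 4.43 CPM in the others, and apart from Kbtbd8 only Kbtbd7 and Kbtbd11 have groups that do not overlap.

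The other 8 genes were all above 1 CPM in every library, with the lowest value, 1.49 CPM, for *Kbtbd3* in M2627, and none of them passed the test. Over all genes, 1 of 16017 had an adjusted p below 0.05, which is 0.00624%. At an unadjusted p below 0.05 there were 1036 genes, 6.47% of those tested, with 3.4% higher and 3.07% lower in miRNA-26b-/- mice. Of the 8 genes, 0 passed at either threshold by edgeR's quasi-likelihood test, and 0 had an adjusted p below 0.05 under any other test, normalization or filter that was run. Their log2 differences were positive for 5 and negative for 3, with a median of 0.02 beside 0.01 over all genes tested. Groups that did not overlap occurred in 2 of the 8, beside 11.5% of all genes tested.

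Among the adaptors, *Kbtbd11* (ENSMUSG00000055675, chr8:15011025-15033333) had the largest difference of the 8 genes. Its level was 15.7, 16.3 and 14.2 CPM in M2626, M2627 and M2628 and 8.68, 11.04 and 12.5 CPM in M2629, M2630 and M2631. Every miRNA-26b-/- library was thus above every miRNA-26b+/+ library. Its log2 difference was 0.52 (SE 0.33, unadjusted p = 0.135, adjusted p = 0.841, edgeR's quasi-likelihood test), and leaving out single libraries gave between 0.39 and 0.64. Of its exon bases, 24.8% are shared with *Gm37844* on the opposite strand, and counting was without strand. *Gm37844* had between 22 and 57 counts and *Kbtbd11* between 266 and 548.

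*Kbtbd7* (ENSMUSG00000043881, chr14:79426511-79431036) had a log2 difference of the opposite sign. KBTBD7 works with CUL3 on TIAM1, an activator of the small GTPase RAC1, and on the RAS inhibitor NF1. *Kbtbd7* was at 16.7, 17.3 and 15.1 CPM in the miRNA-26b-/- and at 20.2, 22.7 and 18.2 CPM in the miRNA-26b+/+ libraries. The groups did not overlap, with a gap of less than 1 CPM between the highest miRNA-26b-/- and the lowest miRNA-26b+/+ library. The log2 difference was -0.31 (SE 0.28, adjusted p = 0.907, edgeR's quasi-likelihood test), so that it did not pass the test.

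For *Kbtbd2*, *Kbtbd3* and *Kbtbd4* the spread within the miRNA-26b-/- group was larger than any difference between the groups. *Kbtbd2* (ENSMUSG00000059486, chr6:56777524-56797813), whose protein limits the regulatory PI3 kinase subunit p85alpha and so keeps insulin signalling active, had 26.3, 24.1 and 46.0 CPM in the miRNA-26b-/- and 33.5, 30.9 and 29.8 CPM in the miRNA-26b+/+ libraries. M2628 was the highest of all and the other 2 miRNA-26b-/- libraries were the lowest, and the log2 difference of 0.02 (SE 0.27) became -0.33 without M2628. M2628 also had the highest sums of endothelial (1695 CPM), fibroblast (8045 CPM), macrophage (735 CPM) and dividing cell markers (22.55 CPM) of all libraries. It had the lowest sum of smooth muscle markers (32780 CPM). The part of these in the level of *Kbtbd2* was not tested. *Kbtbd2* shares 223 of its exon bases, 5.46%, with *Gm10209* on the opposite strand, which had 22 counts in M2630 and 0 in the other libraries. *Kbtbd3* (ENSMUSG00000025893, chr9:4309833-4331732) had 6.17, 1.49 and 6.70 CPM against 3.88, 4.30 and 3.01 CPM. Here M2627 was the lowest of all, and the log2 difference was 0.30 (SE 0.64). It was -0.07 without M2628.

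*Kbtbd4* (ENSMUSG00000005505, chr2:90904740-90911626) encodes the adaptor that directs CUL3 to the CoREST complex of histone deacetylases. It had 28.4, 15.3 and 7.34 CPM in the miRNA-26b-/- and 17.6, 13.1 and 19.0 CPM in the miRNA-26b+/+ libraries. The highest and the lowest library were thus both miRNA-26b-/-, and the log2 difference was 0.01 (SE 0.40). Of its exon bases, 52.8% are shared with *Ptpmt1* on the opposite strand, a mitochondrial phosphatase gene, and without strand the reads of the 2 genes cannot be told apart. *Ptpmt1* had 967, 841 and 259 counts in M2626, M2627 and M2628 and 691, 593 and 699 in M2629, M2630 and M2631, so that its highest and lowest libraries were those of *Kbtbd4*. A further 88 bases of *Kbtbd4*, 2.80%, are shared with *Ndufs3*, a subunit gene of respiratory complex I on the opposite strand, which had between 1100 and 2075 counts.

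**Figure D3:**
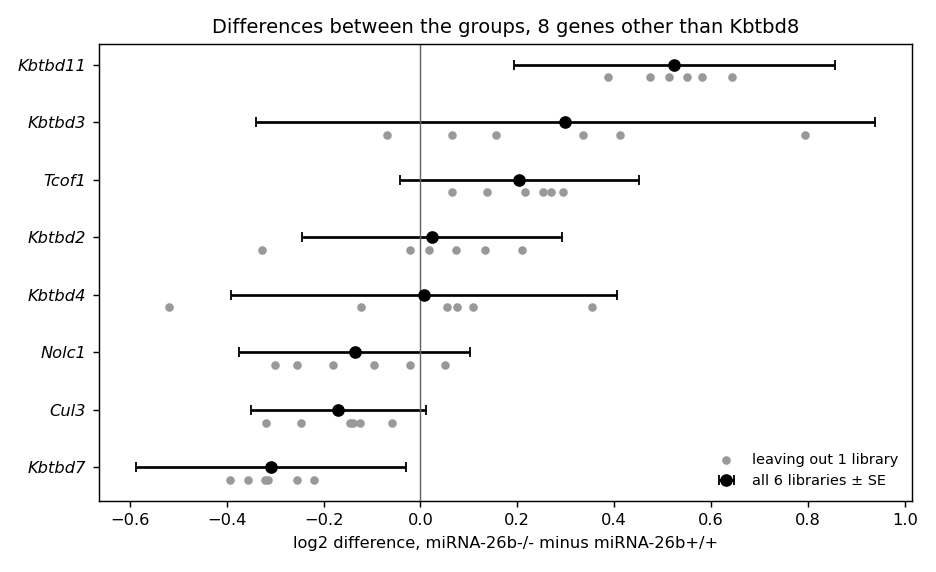
Log2 difference between the groups (x axis, positive when higher in miRNA-26b-/-) for the 8 genes other than Kbtbd8, as the edgeR estimate with its standard error (black) and as the 6 estimates that leave out 1 library each (grey). Kbtbd11 and Tcof1 stay above 0 and Kbtbd7 and Cul3 below 0 in all 6, while Kbtbd2, Kbtbd3, Kbtbd4 and Nolc1 cross 0.

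*Cul3* (ENSMUSG00000004364, chr1:80264923-80340480), the scaffold that all of these adaptors share, was at 74.2, 66.0 and 92.7 CPM in the miRNA-26b-/- and at 92.5, 90.2 and 78.8 CPM in the miRNA-26b+/+ libraries. M2626 and M2627 were below all others, and M2628 was the highest. The mean was 77.7 ± 13.7 CPM against 87.2 ± 7.34 CPM (SD, n = 3 each), a log2 difference of -0.17 (SE 0.18, adjusted p = 0.931, edgeR's quasi-likelihood test). Leaving out single libraries gave between -0.32 (without M2628, adjusted p = 0.564) and -0.06 (without M2627, adjusted p = 0.989). The endothelial markers other than *Kdr* and *Egfl7* were likewise low in M2626 and M2627, and so were the macrophage markers other than *Cd68*. The macrophage markers summed to 282 and 326 CPM in M2626 and M2627 and to between 434 and 735 CPM in the other libraries. The part of either list in the level of *Cul3* was not tested.

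The substrates *Tcof1* (ENSMUSG00000024613) and *Nolc1* (ENSMUSG00000015176, chr19:46075863-46085530) encode nucleolar proteins. *Tcof1* had 28.7, 31.6 and 27.2 CPM in the miRNA-26b-/- and 28.4, 19.7 and 27.8 CPM in the miRNA-26b+/+ libraries. Apart from the low value of M2630 the libraries of both groups lay close together, and the log2 difference was 0.20 (SE 0.25, adjusted p = 0.936, edgeR's quasi-likelihood test). Without M2630 it was 0.065. *Nolc1*, also known as Nopp140, a chaperone of the particles that modify ribosomal RNA, had 45.7, 35.1 and 30.7 CPM against 38.1, 32.8 and 50.6 CPM. The groups overlapped over most of their range, and the log2 difference was -0.14 (SE 0.24, adjusted p = 0.961, edgeR's quasi-likelihood test). In the miRNA-26b-/- libraries, in which *Kbtbd8* was listed at 0, neither substrate was below 27.2 CPM. These are levels of RNA, whereas KBTBD8 acts on the proteins, which these libraries do not measure.

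Per exon length, as FPKM (CPM divided by the exon length in kilobases), *Cul3* was the most abundant of the 9 genes and *Kbtbd8* the least. The mean FPKM over all 6 libraries was 16.9 ± 2.28 for *Cul3*, 9.78 ± 1.96 for *Nolc1*, 7.78 ± 1.89 for *Kbtbd2*, 5.35 ± 2.23 for *Kbtbd4* and 5.17 ± 0.760 for *Tcof1* (SD, n = 6). Further down stood *Kbtbd7* with 4.06 ± 0.601, *Kbtbd11* with 1.83 ± 0.408, *Kbtbd3* with 1.82 ± 0.835 and *Kbtbd8* with 0.245 ± 0.342 FPKM. By its mean, the scaffold stood above each of the 6 adaptors. The level of *Kbtbd4*, and so its place in this order, can include reads of *Ptpmt1*, with which it shares 52.8% of its exon bases. Neighbours in this order were compared over the 6 libraries with an exact paired sign-flip permutation test, two-sided, which with 6 pairs cannot give a p below 0.0312, and p-values were adjusted over the 7 pairs of neighbours without *Kbtbd8*. *Cul3* was above *Nolc1* in 6 of 6 libraries, by 1.74-fold as a geometric mean of FPKM ratios (exact p = 0.0312, adjusted 0.109). *Kbtbd7* was above *Kbtbd11* in 6 of 6 libraries, by 2.25-fold (exact p = 0.0312, adjusted 0.109). *Kbtbd3* was above *Kbtbd8* in 6 of 6 libraries, which is given without a test. None of the 7 pairs passed 0.05 after adjustment. The pairs that differed in 6 of 6 libraries already had the smallest p this test can give, so their adjusted p does not show that the levels are alike. The order itself was taken from these same libraries. The pairs of *Kbtbd4* with *Tcof1* (exact p = 0.812) and *Kbtbd11* with *Kbtbd3* (exact p = 0.906) had means that differed by far less than their spread.

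**Figure D4:**
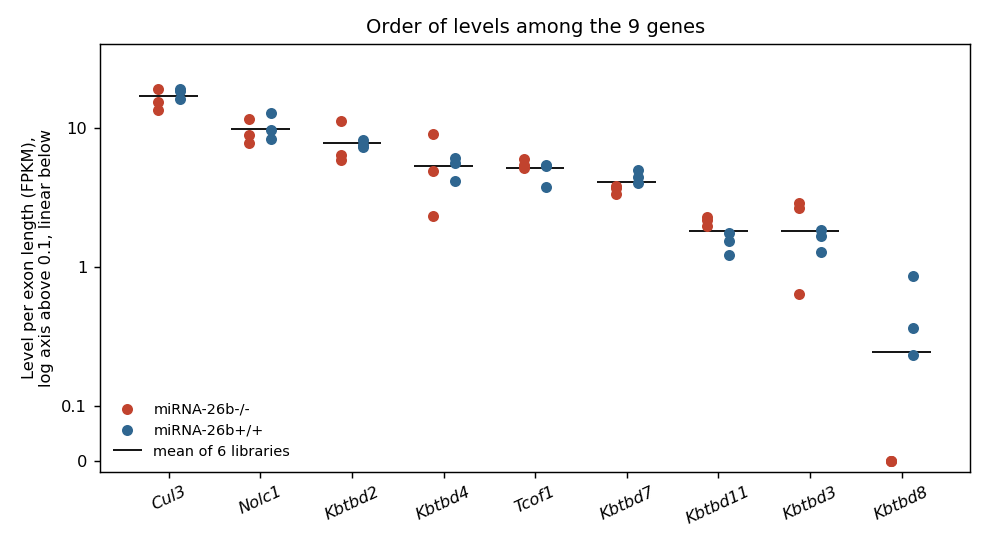
Level per exon length (FPKM; the axis is logarithmic above 0.1 and linear below) of the 9 genes, ordered by their mean over 6 libraries (line), with miRNA-26b-/- libraries in red and miRNA-26b+/+ libraries in blue. Cul3 is highest with a mean of 16.9 FPKM, and the 3 miRNA-26b-/- points of Kbtbd8 lie on top of each other at 0. The level of Kbtbd4 can include reads of Ptpmt1.

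The genes that work with these 9 were described by 10 lists with 156 tested genes. In all lists together, 76 genes had a positive and 80 a negative log2 difference, with a median of -0.01. At an unadjusted p below 0.05 by edgeR's quasi-likelihood test there were 3 genes, *Sox10*, *Ednrb* and *Naf1*, which is 1.92% beside 6.47% of all genes tested, and after adjustment there were 0, with a smallest adjusted p of 0.736. Groups did not overlap for 12 genes, 7.69% beside 11.5% of all genes tested.

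Of the adaptors, 0 of 4 further genes of the KBTBD kind, 0 of 31 other BTB-kelch genes and 0 of 23 BTB genes of other families had an unadjusted p below 0.05. *Klhl41*, a kelch protein of the muscle sarcomere and the most abundant of the first list, had 5.59, 6.35 and 11.2 CPM in the miRNA-26b-/- and 3.88, 6.59 and 6.62 CPM in the miRNA-26b+/+ libraries. *Klhl9*, which acts in mitosis, was at 117 ± 6.48 and 107 ± 13.2 CPM (SD, n = 3 each). *Kctd10*, an adaptor for the GTPase RHOB in endothelial cells, was the most abundant of the BTB genes of other families, with 698 ± 71.8 and 652 ± 58.4 CPM. The groups overlapped in each of these 3 genes.

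The next lists cover the machinery common to cullin ligases. Of the other cullins and their RING partners, 0 of 9 genes passed an unadjusted p of 0.05, and of the genes for neddylation (the attachment of NEDD8 that switches cullins on) and for the exchange of adaptors, 0 of 26. *Cul1* had 96.8 ± 13.6 CPM without and 107 ± 7.48 CPM with miRNA-26b, and *Cand1*, which swaps the adaptors on cullins, had 109 ± 7.78 and 115 ± 18.9 CPM. The median log2 differences of the lists were -0.12 and 0.03.

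Among 10 substrates and partners of the other KBTBD proteins, 0 passed. *Gabarap*, an autophagy protein that KBTBD6 and KBTBD7 bind, was the most abundant with 248 ± 48.2 CPM against 214 ± 31.2 CPM (adjusted p = 0.888, edgeR's quasi-likelihood test). Casein kinase 2, which phosphorylates TCOF1 and NOLC1 and is needed for KBTBD8 to bind them, had 0 of 3 subunit genes past the threshold. *Csnk2a1*, a catalytic subunit gene and the most abundant of the 3, had 67.8 ± 3.82 CPM in the miRNA-26b-/- and 58.6 ± 5.69 CPM in the miRNA-26b+/+ mice. Its log2 difference was 0.21 (adjusted p = 0.897, edgeR's quasi-likelihood test). Those of the other subunit genes, *Csnk2a2* and *Csnk2b*, were -0.05 and 0.10.

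Of the genes for transcription by RNA polymerase I, 0 of 21 passed an unadjusted p of 0.05, and the list median was -0.0042 on the log2 scale. *Ubtf*, the factor that opens ribosomal gene repeats for this polymerase, had 125 ± 13.5 CPM in the miRNA-26b-/- and 124 ± 12.9 CPM in the miRNA-26b+/+ mice. Of 19 genes for ribosomal RNA modification and the nucleolus, 1 was lower and 0 were higher. *Naf1*, an assembly factor of the particles that carry out pseudouridylation, had 11.1, 14.9 and 19.9 CPM in M2626, M2627 and M2628 and 23.6, 24.2 and 25.1 CPM in M2629, M2630 and M2631. Its groups did not overlap, with a log2 difference of -0.66 (SE 0.29, unadjusted p = 0.0385, adjusted p = 0.745, edgeR's quasi-likelihood test). This call was lost without any 1 of the 5 libraries other than M2628. *Ncl*, the abundant nucleolar protein nucleolin, had 274 ± 25.8 and 270 ± 33.0 CPM.

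Of 14 neural crest genes 10 could be tested, 1 higher and 1 lower in miRNA-26b-/- mice at an unadjusted p below 0.05. *Ednrb*, the endothelin receptor type B of neural crest derivatives and of endothelium, had 4.42, 3.40 and 6.31 CPM in the miRNA-26b-/- and 9.95, 9.07 and 11.2 CPM in the miRNA-26b+/+ libraries. Its groups did not overlap, with a log2 difference of -1.12 (SE 0.45, unadjusted p = 0.0262, adjusted p = 0.736, edgeR's quasi-likelihood test). *Sox10*, the transcription factor of neural crest and of Schwann cells, had 8.99, 10.1 and 2.34 CPM against 1.18, 0.874 and 5.29 CPM. The groups overlapped, since M2628 was below M2631, and the log2 difference was 1.54 (SE 0.72, unadjusted p = 0.0486, adjusted p = 0.769, edgeR's quasi-likelihood test). *Sox10* is also 1 of the 6 Schwann cell markers, all with a positive log2 difference, and all 8 endothelial markers had a negative one, as *Ednrb* did. By library, *Ednrb* and the endothelial sum differed. That sum was highest in M2628, with 1695 CPM, where *Ednrb* was below every miRNA-26b+/+ library. The part of these markers in the results for *Sox10* and *Ednrb* was not tested. The call for *Ednrb* was lost when M2626, M2627, M2629 or M2631 was left out, and that for *Sox10* without M2626, M2627, M2629 or M2630. *Ets1* was the most abundant of the list, with 43.7 ± 10.9 and 42.2 ± 4.54 CPM.

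**Figure D5:**
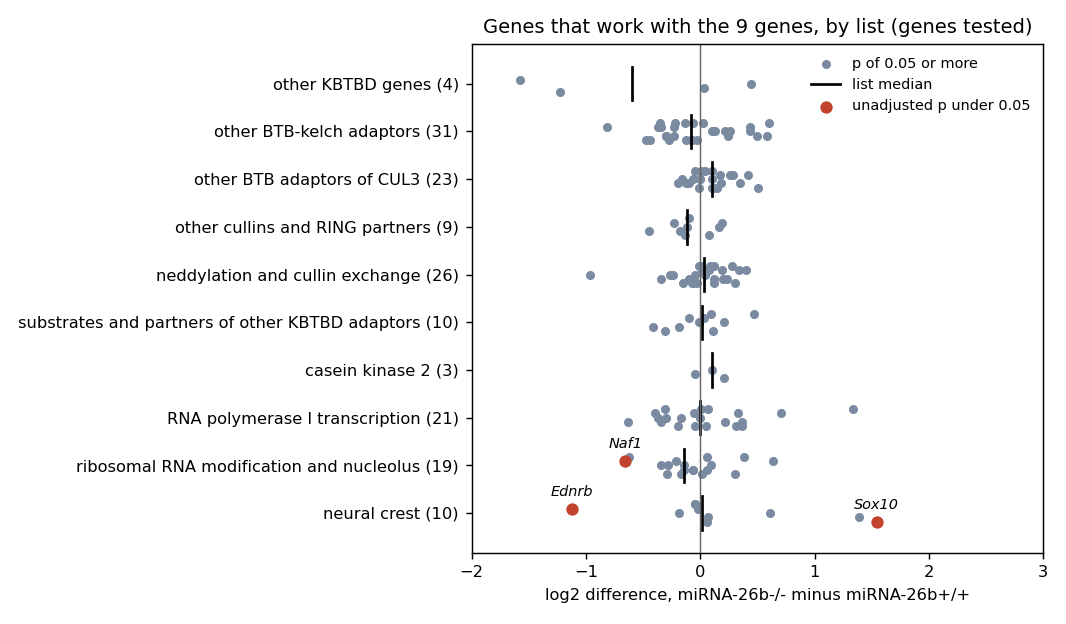
Log2 difference between the groups (x axis, positive when higher in miRNA-26b-/-) for the 156 tested genes of 10 lists, with the number tested in parentheses and a vertical line at each list's median. Only Naf1, Ednrb and Sox10 (red, named) had an unadjusted p below 0.05, and none passed after adjustment.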

How the data were processed

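The submitters' processing notes and the methods name STAR, mm10, Subread, edgeR and limma. The values the authors deposited are counts of reads per gene from featureCounts 1.6.4, summed over the exons of a gene name, unstranded, with a read counted for each gene it covers. The count table was made with GENCODE M21, whereas the methods name M23. The deposited table of normalized values and the authors' own fold changes and p-values was not used.

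The filter required 2 counts in sum and over 1 CPM in 2 or more libraries. TMM normalization (factors 0.982 to 1.015) was followed by glmQLFTest, the quasi-likelihood test in edgeR 4.0.16 (R 4.3.3, prior count 0.125), with Benjamini-Hochberg adjustment over all 16017 genes tested. Nothing in the labels says more than that each library is from 1 mouse, and an exact permutation test of 3 against 3 cannot give a p below 0.1. The procedure was tested on simulated data. FPKM used the exon lengths of the count table. Seed matches were searched in GENCODE M21 transcripts.

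Named are all 9 genes, per list the most abundant gene and up to 3 genes with the smallest unadjusted p below 0.05 in each direction, the 5 genes most correlated with *Kbtbd8*, its neighbours and genes sharing exon bases. The 9 genes and the lists were chosen with earlier results of these data known. Alternatives were other normalizations, filters, prior count and tests (DESeq2 1.42.0, voom of limma 3.58.1, the likelihood ratio test), and leaving out each library. The earlier quasi-likelihood method of edgeR and a limit of 3 counts over the group were added after seeing the data.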

Additional observations from a re-analysis of the deposited data

How the results depend on the processing

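None of the 8 genes other than *Kbtbd8* had an adjusted p below 0.05 under any of the 15 alternatives. The order of levels changed in 3 of 8 alternatives: without M2626 *Tcof1* stood above *Kbtbd4*, and without M2627 or M2631 *Kbtbd3* above *Kbtbd11*. No pair of neighbours passed with either other normalization, and with 5 libraries the smallest exact p is 0.0625, so that none could pass. The log2 difference kept its sign under all alternatives for *Kbtbd7*, *Kbtbd11*, *Cul3* and *Tcof1*, between -0.32 and -0.06 for *Cul3* and between 0.065 (without M2630) and 0.29 for *Tcof1* with 1 library left out. With limma voom it was -0.042 for *Kbtbd2*, -0.025 for *Kbtbd3* and -0.18 for *Kbtbd4*. Leaving out 1 library at a time gave between -0.33 and 0.21 for *Kbtbd2*, -0.070 and 0.79 for *Kbtbd3*, -0.52 and 0.35 for *Kbtbd4* and -0.30 and 0.051 for *Nolc1*. The miRNA-26b+/+ mean of *Kbtbd8* was 72.8-fold above a limit of 3 counts over the group. With 1 library left out and the limits per library, it was between 14.7-fold (without M2631) and 30.2-fold (without M2630) above them. Over all genes, the count at an unadjusted p below 0.05 was between 686 (without M2631) and 1692 (without M2628). The count with an adjusted p below 0.05 was 57 with DESeq2, 19 by likelihood ratio, 3 with limma voom and 0 with the earlier quasi-likelihood method, where 802 genes had an unadjusted p below 0.05, and between 0 (without M2626, M2630 or M2631) and 82 (without M2628) with 1 library left out. Of the genes in the lists, 1 (*Ednrb*) had an unadjusted p below 0.05 with DESeq2, and between 1 (*Ednrb*, without M2630) and 11 (without M2628) with 1 library left out. At that threshold, *Ednrb* was lost in 4, *Naf1* in 5 and *Sox10* in 4 of the 6 fits with 1 library left out, and all 3 without M2626, M2627 or M2629. Of 8 other alternatives, 8 kept *Ednrb*, 7 kept *Naf1* (lost with DESeq2) and 2, both normalizations, kept *Sox10*. The causes of these changes were not tested. No paired analysis was possible because the labels give the mice no replicate numbers, and numbers in accession order pair nothing. Depth sets the limit for *Kbtbd8*, since its 3 counts allowed per miRNA-26b-/- library are on average 0.104 CPM.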
